A study of Mus musculus with 9 samples.

Results

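The plasminogen activator system was followed in MLP29 cells, a line of mouse hepatic progenitor cells, through 6 genes: Plau, Plat, Plaur, Serpine2, Serpinb2 and Plg. Its members were the probe sets of the array that name one of these genes alone, which gave 6 of the 22626 probe sets analysed and 5 of the 12393 genes that are named alone by a probe set. Plau had 2 probe sets, Plat, Plaur, Serpinb2 and Plg had 1 each, and no probe set of the annotation used here names Serpine2, which was not analysed. RNA was measured on 9 Affymetrix Mouse430A_2 arrays from 3 experiments, each with 1 array of antibody-treated, 1 of HGF/SF1-treated and 1 of control cells. Antibody-treated cells received 10 µg/ml of clone BMB5, which blocks the function of α5β1 integrin, a receptor for fibronectin, and HGF/SF1-treated cells received 20 ng/ml of hepatocyte growth factor, the ligand of Met. All 3 conditions, the control cells included, had been kept in 0.1% serum for at least 16 h before, and the treatment of the cells is given as 24 h. The study describes the control cells of its arrays as untreated, and these arrays are labelled only Control. Its general methods state that controls of its experiments received a solvent or a control IgG. By its description of the arrays, the antibody comparison is against cells without an added IgG, although the labels do not say so. No separate array of IgG-treated cells was analysed here. All arrays come from 1 cell line. The titles of the 3 experiments carry 3 different numbers that read as dates, and the step they would date is not named.

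Plasminogen is an inactive precursor that the liver secretes into the blood and that becomes plasmin, a protease that dissolves fibrin and cuts other matrix proteins, when an activator cleaves it. The activators are urokinase, encoded by Plau, and tissue-type plasminogen activator, encoded by Plat. Plaur encodes the urokinase receptor, a protein anchored in the cell membrane that gathers urokinase at the surface of moving cells, and Serpinb2 encodes plasminogen activator inhibitor type 2. Serpine2 encodes protease nexin-1, an inhibitor of thrombin, urokinase and plasmin. HGF is itself related in sequence to plasminogen, although it has no protease activity.

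Values are log2 intensities of probe sets as deposited, and differences are log2 fold changes between conditions with the standard error (SE) of a limma fit over all probe sets. A probe set counts as called at an unadjusted p under 0.05, and adjusted p-values are Benjamini-Hochberg values over all 22626 probe sets. The 9 arrays had medians from 5.91 to 6.08. The label of the cells was checked on marker genes by their mean over the arrays: the epithelial and biliary keratins Krt8, Krt18 and Krt19 and the cadherin Cdh1 were brighter than 94.7% of all probe sets or more, whereas Epcam, Sox9, Prom1 and Afp were below the median brightness. None of the 4 hepatocyte, 5 leukocyte, 4 endothelial and 5 fibroblast or stellate cell markers measured was above the median brightness. The summed level of the leukocyte markers on the log2 scale was 6.69 to 6.75 in antibody-treated, 6.62 to 6.78 in HGF/SF1-treated and 6.56 to 6.66 in control cells. That of the hepatic progenitor and biliary markers was 15.22 to 15.31, 15.3 to 15.51 and 15.37 to 15.55 in the same order. The sums of the hepatocyte, endothelial and fibroblast or stellate markers overlapped between conditions. The part of other cells in the values below was not tested.

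Of the 5 genes measured, Plat and Plaur were bright and the others dim. The mean of Plaur over the 9 arrays lay at percentile 93.4 of all probe sets and that of Plat at percentile 89.7. The probe sets of Plau lay at percentiles 26.8 and 12.2, that of Plg at 21.7 and that of Serpinb2 at 0.495. Brightness depends on the probes as well as on the RNA, so these ranks do not order the genes by their amount of RNA, and the values used here carry no detection call that would separate a low level from background.

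Of the sequences at hand, that of Plaur is shown because Plaur was one of the 2 bright members and lay higher after the antibody in every experiment. The RefSeq table of promoters (GRCm38.p6) holds 3 of the 6 members, Plaur, Serpine2 and Serpinb2, and not Plat, Plau or Plg. The window runs from 250 bases before to 50 bases after a start of Plaur listed in that table, which lies inside the gene as RefSeq annotates it, downstream of the first annotated base. It is at chr7:24462233-24462532 on the plus strand, and the capitals mark the AP-1 match.
Plaur: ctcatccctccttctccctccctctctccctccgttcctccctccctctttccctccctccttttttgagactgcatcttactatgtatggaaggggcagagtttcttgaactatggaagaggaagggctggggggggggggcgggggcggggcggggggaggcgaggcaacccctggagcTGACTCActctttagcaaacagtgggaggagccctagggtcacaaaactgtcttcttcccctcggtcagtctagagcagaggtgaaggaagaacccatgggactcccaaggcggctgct
AP-1 is a dimer of Fos and Jun proteins, and its 7-letter motif (TGACTCA or its reverse complement TGAGTCA, searched on both strands) was found once, from position -69 to -63 relative to this start. The same letters occur in 5.2% of the 32851 promoter windows of the table. The window also held 3 matches of the GC box (GGGCGG), of which the last 2 share a letter, against 35.7% of all windows with at least 1, and 2 matches of the PEA3/ETS motif (AGGAAG), against 35.4%. Neither a TATA box (TATAAA) nor a CAAT box (CCAAT) was found, and these occur in 13.6% and 37.4% of all windows. A match describes the letters of the window and not binding of a factor.

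Plat, the tissue-type activator, was highest after the antibody and lowest after HGF/SF1 within each of the 3 experiments. Its log2 values in experiments 1, 2 and 3 were 9.69, 10.51 and 10.45 in antibody-treated cells, 8.83, 9.74 and 9.88 in HGF/SF1-treated cells, and 9.36, 9.84 and 10.14 in control cells. The conditions overlapped, and experiment 1 was the lowest in each of them. Apart from experiment 1, antibody-treated cells lay above the others, while HGF/SF1-treated and control cells still overlapped. Between antibody-treated and control cells the difference was 0.33, 0.67 and 0.31 in the 3 experiments, with means of 10.22 ± 0.46 against 9.78 ± 0.40 (SD, n = 3 each). The fold change was 1.35 with a 95% confidence interval from 0.788 to 2.32, and Plat was not called (log2 fold change 0.44, SE 0.34, unadjusted p = 0.235, adjusted p = 0.709 from limma).

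HGF/SF1 went with the opposite sign. Plat was lower in HGF/SF1-treated than in control cells by 0.53, 0.10 and 0.26 in experiments 1, 2 and 3, with a mean of 9.48 ± 0.57 after HGF/SF1 (SD, n = 3). The log2 fold change was -0.30 (SE 0.34, unadjusted p = 0.410, adjusted p = 1 from limma), which was not a call, and it was 0.03 once the HGF/SF1 array of experiment 1 was dropped. The direct comparison of antibody-treated with HGF/SF1-treated cells gave the largest difference among the members, 0.73 (SE 0.34) or a fold change of 1.66 with a 95% confidence interval from 0.967 to 2.85, with 0.86, 0.77 and 0.57 in the 3 experiments. It was not a call either (unadjusted p = 0.0625, adjusted p = 0.417 from limma).

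The arrays of an experiment share a date-like number in their titles, and the calls on Plat depended on whether the fit held the experiment as a block. With the block, the SE of Plat was 0.12, and limma gave unadjusted p = 0.00764 and adjusted p = 0.126 for antibody against control cells and 0.0402 and 1 for HGF/SF1 against control cells. For antibody against HGF/SF1, the blocked fit gave unadjusted p = 0.000456 and adjusted p = 0.0491, which put Plat among the 1.07% of all probe sets with an adjusted p under 0.05 there, against 0.106% for antibody against control cells. With the experiment as a random block, at an estimated correlation of 0.249, limma gave Plat an unadjusted p of 0.115 against control cells, 0.267 for HGF/SF1 and 0.0174 for antibody against HGF/SF1, the last with an adjusted p of 0.167, so that only this comparison was called. In the fit with the fixed block, the unadjusted p of that comparison stayed between 0.00291 and 0.00543 when an experiment was left out, while the adjusted p was 0.0326 without experiment 1, 0.424 without experiment 2 and 0.350 without experiment 3. For antibody against control cells the blocked p was 0.0836 without experiment 2, and for HGF/SF1 against control cells it was 0.227 without experiment 1 and 0.110 without experiment 3. In the fit without a block, leaving out experiment 1 gave a call against HGF/SF1-treated cells (unadjusted p = 0.00510) and against control cells (0.0185). The call against HGF/SF1-treated cells was also made when either the antibody array of experiment 1 (0.0210) or, of the HGF/SF1 arrays, that of experiment 3 (0.0394) was dropped.

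Plaur, the urokinase receptor, was higher after the antibody in each experiment, and HGF/SF1-treated and control cells lay close together. Its log2 values in experiments 1, 2 and 3 were 10.32, 10.86 and 11.09 in antibody-treated cells, 10.08, 10.12 and 10.88 in HGF/SF1-treated cells, and 9.92, 10.04 and 10.90 in control cells. Experiment 3 was the highest in every condition, and its control array lay above the antibody arrays of the other experiments, so the conditions overlapped. The difference between antibody-treated and control cells was 0.40, 0.81 and 0.19 in the 3 experiments, with means of 10.76 ± 0.40 against 10.29 ± 0.53 (SD, n = 3 each). The fold change was 1.38 with a 95% confidence interval from 0.821 to 2.33 and was not a call (log2 fold change 0.47, SE 0.33, unadjusted p = 0.191, adjusted p = 0.665 from limma). With the experiment as a block the SE was 0.14 and the unadjusted p was 0.0121, with an adjusted p of 0.150.

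Between HGF/SF1-treated and control cells, Plaur differed by 0.16, 0.08 and -0.02 in experiments 1, 2 and 3. The log2 fold change of 0.07 (SE 0.33) had a 95% confidence interval from -0.68 to 0.83, or from -0.25 to 0.40 with the block, which leaves room for a change in either direction. Its sign turned when the HGF/SF1 array of experiment 3 (-0.19), the control array of experiment 1 (-0.11) or that of experiment 2 (-0.05) was dropped. Against HGF/SF1-treated cells, antibody-treated cells were higher by 0.24, 0.74 and 0.21, with a log2 fold change of 0.39 (SE 0.33, unadjusted p = 0.264, adjusted p = 0.709 from limma) and a blocked p of 0.0256. With the random block, neither antibody difference of Plaur was called (p of 0.0903 against control and 0.145 against HGF/SF1-treated cells). Experiment 2 carried the widest difference of Plaur, and without it the blocked p was 0.0834 against control and 0.163 against HGF/SF1-treated cells. In the fit without a block, the difference from control cells was called without experiment 3 (unadjusted p = 0.0294) or without its control array alone (0.0357).

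**Figure D1:**
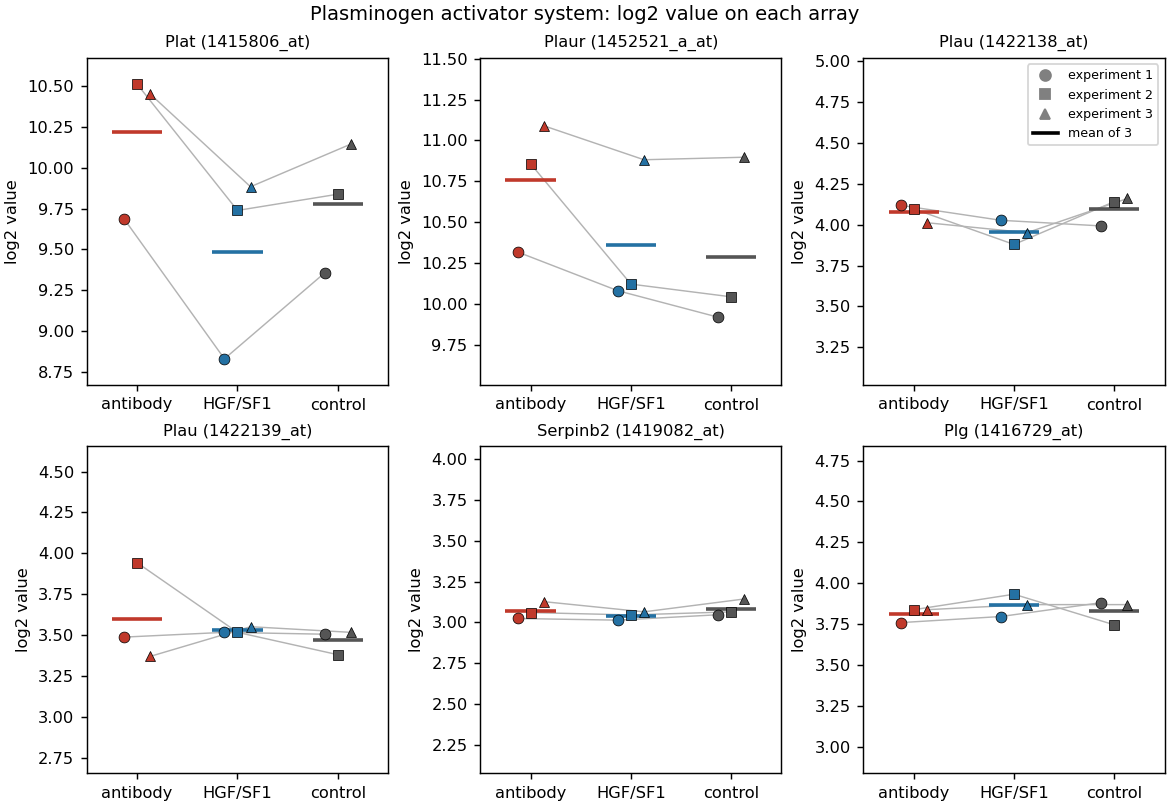
Log2 value of each member probe set on each array (vertical axis, 2 log2 units in every panel) in antibody-treated, HGF/SF1-treated and control cells, with a marker per experiment, a grey line joining the arrays of an experiment, and the mean of 3 arrays as a bar. In the Plat panel all 3 lines dip at HGF/SF1 and are highest at the antibody, in the Plaur panel they are highest at the antibody, and the Serpinb2 and Plg panels are almost flat.

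The spread of Plat and Plaur came more from the experiments than from the treatments. Within a condition, Plat spanned 0.82 between experiments in antibody-treated, 1.05 in HGF/SF1-treated and 0.79 in control cells, and Plaur spanned 0.77, 0.80 and 0.98 in the same order. Of the sum of squares of Plat over the 9 arrays, 59.7% lay between experiments, 37.0% between conditions and 3.35% in the rest. For Plaur these shares were 69.4%, 22.8% and 7.83%. Over the 11313 probe sets above the median brightness, the medians were 34.1% between experiments and 26.8% between conditions, and the share between experiments was the larger in 55% of them. Plat and Plaur correlated with r = 0.785 over the 9 arrays, which share experiments and conditions.

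**Figure D2:**
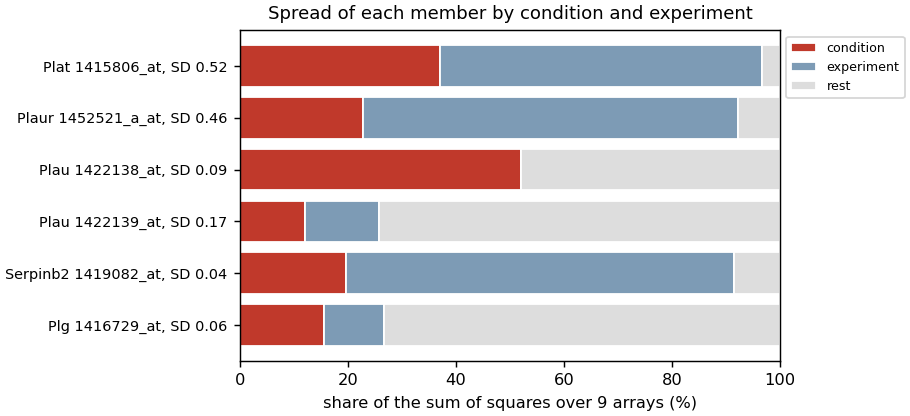
Share of the sum of squares of each member probe set over the 9 arrays (horizontal axis, %) that lies between conditions, between experiments and in the rest, with the SD over the arrays in log2 units beside each name. Plat, Plaur and Serpinb2 have most of their spread between experiments, 59.7%, 69.4% and 71.9%, but all probe sets other than those of Plat and Plaur have an SD of 0.17 or less.

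Plau, the gene of urokinase, was dim on every array by both probe sets. For probe set 1422138_at the values in experiments 1, 2 and 3 were 4.12, 4.10 and 4.01 in antibody-treated cells, 4.03, 3.88 and 3.95 in HGF/SF1-treated cells, and 3.99, 4.14 and 4.16 in control cells. The conditions overlapped, and the log2 fold change was -0.02 (SE 0.09, 95% confidence interval -0.24 to 0.19) after the antibody and -0.15 (SE 0.09, interval -0.36 to 0.07) after HGF/SF1. For probe set 1422139_at, 8 of the 9 arrays lay between 3.37 and 3.55 and the antibody array of experiment 2 stood apart at 3.94. Its log2 fold change after the antibody was 0.13 (SE 0.15, interval -0.20 to 0.47), and -0.04 without that array. The 2 probe sets of Plau correlated with r = 0.0739 over the 9 arrays, so neither followed the other.

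Plg, the gene of plasminogen, and the inhibitor gene Serpinb2 varied less than nearly all other probe sets. Over all 9 arrays Plg lay between 3.74 and 3.93 and Serpinb2 between 3.01 and 3.14, and the SD of Plg exceeded that of only 2.04% and the SD of Serpinb2 that of only 0.645% of the probe sets. Plg averaged 3.81 ± 0.05 in antibody-treated, 3.87 ± 0.07 in HGF/SF1-treated and 3.83 ± 0.08 in control cells (SD, n = 3 each). Serpinb2 averaged 3.07 ± 0.05 in antibody-treated, 3.04 ± 0.03 in HGF/SF1-treated and 3.09 ± 0.05 in control cells (SD, n = 3 each). All conditions overlapped for both genes. In the fit without a block, none of their intervals in the 3 comparisons reached a fold change outside 0.836 to 1.18. At such low intensities a small change in RNA may not be detectable.

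Over all 6 member probe sets, limma called 0 after the antibody against control cells, where 11.8% of all probe sets were called, 0 after HGF/SF1, where 0.849% were, and 0 for antibody against HGF/SF1, where 13.2% were. With the experiment as a block, it called 2 of 6 after the antibody, Plat and Plaur, both of them higher, as were 8.05% of all probe sets. The blocked fit called 1 of 6, Plat, lower after HGF/SF1, where 0.857% of all were, and 2 of 6, Plat and Plaur, higher for antibody against HGF/SF1, where 9.1% were. In no comparison were the conditions free of overlap for any member, as they were for 14.2%, 3.69% and 13.8% of all probe sets. After the antibody against control cells, 2 of 6 were higher in every experiment, Plat and Plaur, as were 18.2% of all probe sets, and 1 lower, Serpinb2, as were 18.6%. After HGF/SF1, 1 was higher in every experiment, Plau 1422139_at, as were 11.2%, and 2 were lower, Plat and Serpinb2, as were 10.7%. For antibody against HGF/SF1, 4 were higher in every experiment, Plat, Plaur, Plau 1422138_at and Serpinb2, as were 16.5%, and 1 lower, Plg, as were 18.4%. After the antibody, the members had a median log2 fold change of 0.06, against 0.00 over all probe sets.

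**Figure D3:**
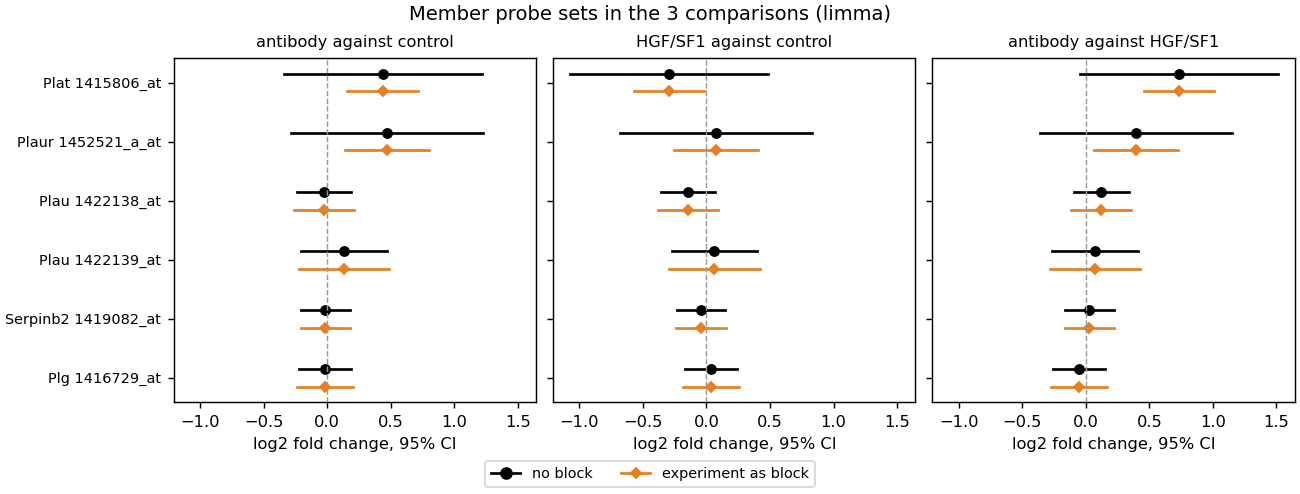
Log2 fold change of each member probe set with its 95% confidence interval (horizontal axis) in the 3 comparisons, from limma without a block (circles) and with the experiment as a block (diamonds). The intervals of Plat and Plaur are wide and cross 0 without the block, while with it those of Plat lie to one side of 0 in all 3 comparisons and those of Plaur in the 2 that involve the antibody.

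By level, the order of Plat was antibody-treated, control and HGF/SF1-treated cells, and that of Plaur was antibody-treated, HGF/SF1-treated and control cells. No neighbours in these orders differed beyond the spread between arrays in the fit without a block. With the block, antibody-treated cells differed from the next condition for both genes, control from HGF/SF1-treated cells differed for Plat and not for Plaur, at unadjusted p under 0.05. For Plau, Plg and Serpinb2, no neighbours differed in either fit.

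Among the 3100 genes above the median brightness with an SD of at least 0.3, the patterns most like that of Plat over the 9 arrays were those of Il13ra1, a subunit of the interleukin-13 receptor (r = 0.9905), Eif4a2, a translation initiation factor (r = 0.989), and Kdm1a, a histone demethylase (r = 0.983). Those most like Plaur were Eps8, a regulator of actin (r = 0.988), Tbpl1, a relative of the TATA-binding protein (r = 0.976), and Saa3, an acute-phase protein (r = 0.976). None of these 6 genes was called after the antibody in the fit without a block, with log2 fold changes from 0.35 for Eps8 to 1.19 for Saa3. The arrays share experiments, so these correlations hold the differences between experiments as well as those between treatments.

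Around these members, 36 of 41 further genes of the pathway were measured, by the brightest probe set of each. Of these 36, 14 were above the median brightness. The others were below it, where a small change in RNA may not be detectable. After the antibody, 1 was higher and 0 lower by the limma call without a block, where 4.68% of the 12393 genes were called higher and 7.92% lower, and the median log2 fold change was 0.03 for the list and 0.00 for all genes. The gene called higher was Serpinb8, an intracellular serpin of the same clade as Serpinb2 whose human protein inhibits furin. Its values were 8.02, 8.98 and 8.19 in antibody-treated, 7.96, 7.45 and 6.91 in HGF/SF1-treated and 7.30, 7.70 and 6.79 in control cells. All 3 antibody arrays lay above all control arrays (log2 fold change 1.13, SE 0.35, unadjusted p = 0.0114, adjusted p = 0.270 from limma). Of all probe sets, 14.2% had no overlap between these conditions in either direction. HGF/SF1 gave 0 limma calls among these 36 genes in either fit, where 0.839% of all genes were called without the block and 1.66% with it.

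Among genes that bind fibrin or start its formation, F3, which encodes tissue factor, the cell-surface trigger of clotting, was higher after the antibody in 3 of 3 experiments. Its values were 9.14, 10.36 and 10.31 in antibody-treated, 7.81, 9.31 and 9.21 in HGF/SF1-treated and 8.54, 9.20 and 9.21 in control cells. As for Plat, experiment 1 was the lowest in each condition. F3 had a log2 fold change of 0.95 (SE 0.47, unadjusted p = 0.0735) against control cells and was called against HGF/SF1-treated cells, at 1.16 (SE 0.47, unadjusted p = 0.0362, adjusted p = 0.336 from limma). With the block these unadjusted p-values were 0.000761 and 0.000234, the second with an adjusted p of 0.0468. Without the block, the call against HGF/SF1-treated cells was lost when the antibody array of experiment 2 (unadjusted p = 0.113) or 3 (0.108), the HGF/SF1 array of experiment 1 (0.120), experiment 2 (0.102) or experiment 3 (0.120) was dropped.

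Among the 10 measured partners of the urokinase receptor and clearance receptors, 0 were called by limma after the antibody against control cells without a block, and the median log2 fold change was 0.01. Lrp1, which clears complexes of activators with their inhibitors, had values of 9.57, 8.95 and 9.55 in antibody-treated, 10.20, 9.82 and 9.68 in HGF/SF1-treated and 9.78, 9.80 and 9.73 in control cells. All antibody arrays were below all others. Of all probe sets, 14.2% had no overlap in either direction between antibody and control arrays and 13.8% between antibody and HGF/SF1 arrays. The log2 fold changes of Lrp1 were -0.41 (SE 0.19, unadjusted p = 0.0646) against control and -0.54 (SE 0.19, unadjusted p = 0.0222, adjusted p = 0.281 from limma) against HGF/SF1-treated cells. The second difference was not called once the antibody array of experiment 2 (unadjusted p = 0.0692), the HGF/SF1 array of experiment 1 (0.0797), experiment 1 (0.0677) or experiment 2 (0.120) was dropped. Vldlr, the very low density lipoprotein receptor, had a log2 fold change of 0.47 (SE 0.24, unadjusted p = 0.0799, 0.0125 with the block) after the antibody. Lrpap1, which encodes a chaperone of such receptors, had 4 probe sets that differed from each other. The brightest, on which the counts rest, had a log2 fold change of -0.08 (SE 0.15) against control and 0.00 against HGF/SF1-treated cells, and another had -0.10 (SE 0.18) and -0.05. The remaining 2 probe sets were called lower in both comparisons, at -0.62 (SE 0.17, unadjusted p = 0.00609) and -0.84 (SE 0.22, unadjusted p = 0.00450) against control cells and at -0.62 and -0.96 against HGF/SF1-treated cells.

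Between antibody-treated and HGF/SF1-treated cells, 2 genes of the list were called higher, Serpinb8 and F3, and 1 lower, Lrp1, where 5.19% of all genes were called higher and 8.96% lower. Serpinb8 had a log2 fold change of 0.95 (SE 0.35, unadjusted p = 0.0255, adjusted p = 0.296 from limma), with 0.06 in experiment 1 against 1.53 and 1.28 in the other two. Its call depended on the antibody array of experiment 2 (unadjusted p = 0.0941 without it), the HGF/SF1 arrays of experiments 2 (0.0549) and 3 (0.0944), and experiments 2 (0.141) and 3 (0.0862). In the remaining groups the genes with the 2 smallest p after the antibody were, of the proteases, Ctsl, a lysosomal protease, at 0.38 (SE 0.21) and Hpn, the surface protease hepsin, at 0.17 (SE 0.10). Of the genes that bind plasminogen they were Krt8, a keratin, at -0.15 (SE 0.09) and Plgrkt, a plasminogen receptor, at -0.29 (SE 0.23). After Serpinb8 and F3 in their own groups came the complement inhibitor Serping1 at 0.18 (SE 0.11) and the fibrinogen chain Fgb at -0.25 (SE 0.19). None of these 6 passed an unadjusted p under 0.05 without the block, and Hpn, Serping1 and Fgb were below the median brightness. With the experiment as a block, limma called 5 of the 36 genes after the antibody, namely Serpinb8, F3, Vldlr and Ctsl higher and Lrp1 lower, where 18.5% of all genes were called. For antibody against HGF/SF1 it called 6, namely Serpinb8, F3, Vldlr and St14, which encodes the surface protease matriptase, higher, and Lrp1 and Plgrkt lower, where 20.3% of all genes were. St14 was dim, at percentile 33.0 of all probe sets. Against control cells its log2 fold change was 0.33 (SE 0.23, unadjusted p = 0.194 from limma without the block), with -0.02 in experiment 3.

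**Figure D4:**
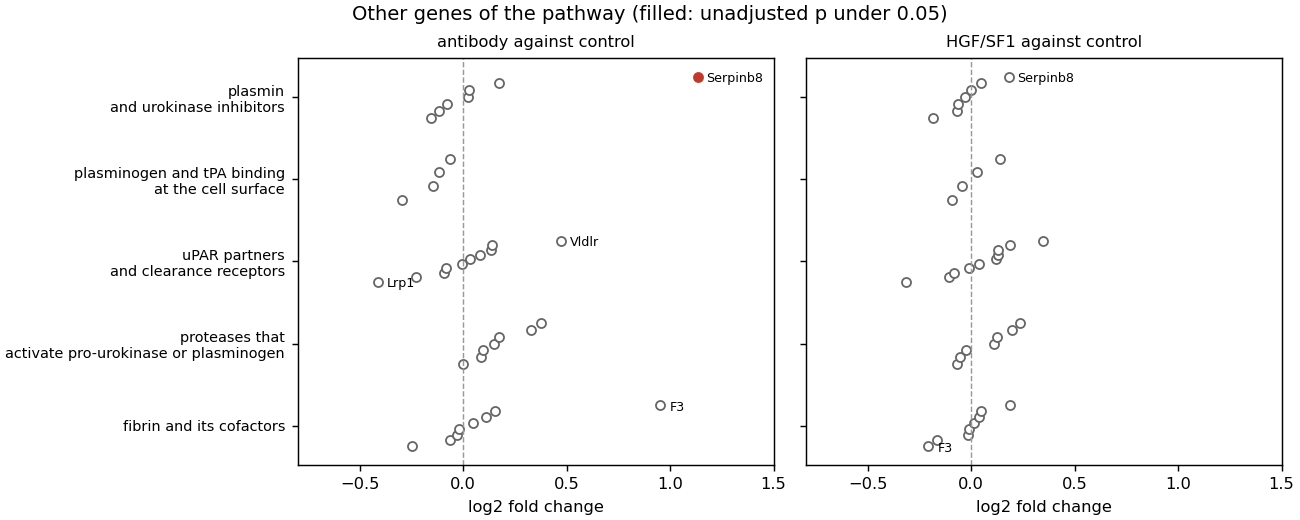
Log2 fold change (horizontal axis) of the 36 measured genes of the pathway outside the members, in 5 groups, for antibody against control cells (left) and HGF/SF1 against control cells (right), with filled circles at an unadjusted p under 0.05 without a block. Serpinb8, at 1.13 after the antibody, is the filled circle, F3 at 0.95 lies nearest to it, and after HGF/SF1 all genes lie between -0.32 and 0.34. Of the 36 genes, 14 are above the median brightness.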

How the data were processed

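The values used are those the authors deposited, per probe set and on a log2 scale, made with affylmGUI after an rma background step. The normalization between arrays and the summary are not given in the sources used here, and the intensity files were not used. Of 22690 probe sets, 64 control probe sets were left out. The platform annotation, with symbols updated through RefSeq (GRCm38.p6), names 1 gene for 20380 probe sets (20351 of them matched), several for 691 and none for 1555. Condition means were estimated in R 4.3.3 by limma 3.58.1 (eBayes, 6 residual and 2.39 prior degrees of freedom, two-sided) and checked on simulated data. The simulated arrays were independent, with no difference between experiments, and only antibody against control without a block was fitted. The check therefore does not cover differences between experiments or the blocked fits. Experiments are the date-like numbers in the titles, numbered in accession order, and the study states that each held all conditions. After condition means were removed, the r of same-experiment arrays was 0.0958 to 0.591 and that of arrays of different experiments and conditions was -0.484 to 0.0308. The deviations of the 3 arrays of a condition cancel out, so positive r within experiments pushes r between them down by construction. The 2 ranges are therefore not independent. P-values rest on these 3 experiments on 1 cell line, and the number of arrays limits the precision. Without a block they set a difference against the spread of arrays within a condition. With the fixed block they set it against what is left once differences between experiments are removed. Either spread is moderated over all probe sets. Alternatives were the experiment as a block or random block, other scalings, a brightness filter, a trend, 2 conditions only, the adjusted threshold, mean probe sets, and arrays or experiments left out. Members and pathway list were chosen with earlier results of these data known. All members are named, as are list genes called in any comparison or with the 2 smallest p of their group for antibody against control cells, and the 3 genes most like each bright member. Lrpap1 and St14 were named after their values were seen, and other genes for the cell type check.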

Additional observations from a re-analysis of the deposited data

How the results depend on the processing

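Of the 6 member probe sets, 0 were called in each comparison. With the experiment as a replicate block 2 were called for antibody against control, 1 for HGF/SF1 against control and 2 for antibody against HGF/SF1 cells. For the last of these, 1 was called with the random block, with arrays centred on their medians and with a trend. Leaving out arrays or experiments gave 0 to 1 for both antibody comparisons and 0 for HGF/SF1 against control. Of the 36 pathway genes, 1 was called for antibody against control, and 5 with the block, 4 with the random block, 2 with a trend, with the 2 conditions only and with mean probe sets, 0 at an adjusted p under 0.05 in limma and 1 to 4 with arrays or experiments left out. For antibody against HGF/SF1 3 were called, and 6 with the block, 1 with the 2 conditions only, 0 at an adjusted p under 0.05 in limma and 0 to 4 with arrays or experiments left out, against 0 to 1 for HGF/SF1 against control. The cause was not tested. With arrays centred on their medians, the log2 fold change after the antibody became 0.034 for Plau 1422138_at, 0.042 for Serpinb2 and 0.036 for Plg. Leaving out arrays or experiments also turned signs of small differences. After the antibody against control cells, these ranged from -0.10 to 0.041 for Plau 1422138_at, from -0.083 to 0.27 for Plau 1422139_at, from -0.043 to 0.015 for Serpinb2 and from -0.077 to 0.031 for Plg. After HGF/SF1 they ranged from -0.51 to 0.031 for Plat, from -0.19 to 0.38 for Plaur and from -0.042 to 0.094 for Plg, and for antibody against HGF/SF1 from -0.11 to 0.20 for Plau 1422139_at. Leaving out an experiment within the blocked fit was chosen after seeing the data. Plat and Plaur stayed higher after the antibody in all of these, with ranges on leaving out arrays or experiments of 0.23 to 0.70 for Plat and 0.29 to 0.77 for Plaur against control cells, and of 0.41 to 1.00 and 0.22 to 0.65 against HGF/SF1-treated cells.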
